A study of Mus musculus with 9 samples.

Results

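A set of 10 enzyme genes of serine, one-carbon, asparagine, branched-chain and sulfur amino acid metabolism were followed across 9 bead arrays of mouse pancreatic cells. They are Phgdh, Psat1, Psph, Shmt2, Mthfd2, Aldh1l2, Asns, Bcat2, Cbs and Cth, and they had been chosen for a signal that was high in exocrine cells and low in induced cells. They are 10 of 15967 genes named on the array and have 15 of its 24613 probes, taken by platform gene symbol. The 3 groups held 3 arrays each. Induced cells were GFP+ cells sorted from the pancreas of rag-/- adults, which lack mature lymphocytes, 1 month after an adenovirus called M3, a name the labels do not spell out. Per the labels 22% of these sorted cells were ins+, and each sample held about 5000 cells. Whole islets, 4 to 5 per sample, were picked by hand from adult pdx-gfp transgenic animals, and so held every islet cell type. Non-islet cells, about 10000 per sample, were what remained of the pancreas of such GFP transgenic animals (written pdxa-gfp in this label) once the islets were out. No group is a pure cell type, and fewer cells of a type and less RNA per cell cannot be told apart. Induced cells came from another mouse line than the others, so line and group cannot be told apart. Nothing states that the 3 arrays of a group came from separate animals, so errors and p-values cover the spread among these arrays, and part of that may be technical.

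Serine is made from a glycolytic intermediate by Phgdh, Psat1 and Psph in turn. In mitochondria Shmt2 splits serine to glycine and loads its carbon onto folate, and Mthfd2 and Aldh1l2 oxidize the folate-bound carbon further. Asns makes asparagine from aspartate. Bcat2 is the mitochondrial transaminase of leucine, isoleucine and valine. Cbs and Cth pass the sulfur of homocysteine to cysteine. Many of these genes are known targets of ATF4, a transcription factor translated when amino acids run short or the endoplasmic reticulum is stressed, and acinar cells make secreted protein at a very high rate.

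Since ATF4 with its partners binds a core written TGATGNAA, the 250 bases before the transcription start were searched on both strands in RefSeq promoters (GRCm38.p6), which matched 8 of the 10 genes. The core was found in 1 of these 8 genes, Asns, 23 to 16 bases before the start, and in 3.45% of all 32851 promoters of that length. CCAAT was found in 5 of the 8 genes and 33.8% of all promoters, GGGCGG in 4 and 32.7%, and CACGTG in 1 and 6.02%. The 8 genes have 10 promoters, and a gene counted if any of its promoters matched. The shares of all promoters count single promoters, so the units differ. A match is a description of the letters and not of a bound site. The last 100 bases before the start are shown 5′ to 3′ on the gene's strand for the gene with the ATF4 core and for 3 serine and folate genes with CCAAT (for Psat1 the first of 2 listed promoters), with capitals for the ATF4 core (Asns) and for CCAAT on either strand (the others), which do not overlap.
Asns, chr6:7693210-7693309, minus strand: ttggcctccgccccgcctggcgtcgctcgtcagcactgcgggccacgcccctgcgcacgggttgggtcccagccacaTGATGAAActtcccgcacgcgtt
Phgdh, chr3:98339970-98340069, minus strand: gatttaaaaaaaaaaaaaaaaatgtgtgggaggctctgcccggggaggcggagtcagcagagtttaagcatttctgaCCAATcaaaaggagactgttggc
Psat1, chr19:15925060-15925159, minus strand: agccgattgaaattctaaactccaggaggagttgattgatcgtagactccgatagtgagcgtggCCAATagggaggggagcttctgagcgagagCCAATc
Mthfd2, chr6:83317605-83317704, minus strand: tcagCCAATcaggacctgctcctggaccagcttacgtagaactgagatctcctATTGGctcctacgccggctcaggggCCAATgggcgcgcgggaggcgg

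Values below are quantile-normalized signals, given per array, and differences are log2 differences with the standard error (SE) of limma's fit, taken after an offset of 11.93 was added, which understates the change of dim probes. A probe counted as above background beyond the 95th percentile of a normal noise distribution estimated for its array. Induced arrays had 13476 to 13689 probes above background, islet arrays 13525 to 13763 and non-islet arrays 9210 to 9933, and in non-islet arrays the 50 brightest probes took 42.0% to 45.4% of the deposited signal, against 13.0% to 13.3% in induced and 14.3% to 16.5% in islet arrays. Scaling therefore weighs on every comparison with non-islet cells. Acinar secretory genes were checked as tissue markers, and the 13 measured of 15 listed were above background on every array of all groups, with a summed deposited signal of 53939 to 57140 in induced cells, 68112 to 79857 in islets and 247803 to 270806 in non-islet cells. The 8 measured beta cell genes summed to 9612 to 10177 in induced cells, 17861 to 20789 in islets and 81.5 to 99.0 in non-islet cells, where G6pc2, Slc30a8, Ucn3 and Nkx6-1 were not above background.

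Serine synthesis enzymes were lowest in induced cells. Phgdh, which commits carbon to serine, had signals of 14.1, 19.2 and 13.4 in induced cells, 25.7, 27.4 and 23.8 in islets and 139.5, 163.7 and 162.4 in non-islet cells. The 3 groups did not overlap, with a log2 difference of -2.61 (SE 0.11) for induced against non-islet cells and -0.45 (SE 0.11) for induced cells against islets. Psat1, the next enzyme, had signals of 28.2, 20.7 and 25.4 in induced cells, 152.9, 157.7 and 148.7 in islets and 631.6, 631.6 and 645.5 in non-islet cells. Again the groups were apart, with a difference of -4.15 (SE 0.095, or 17.7-fold) from non-islet cells and of -2.17 (SE 0.095) from islets. The other Psat1 probe ran the same way, at -4.13 (SE 0.092) and -1.77 (SE 0.092). Psph, the last enzyme of the pathway, was above background on 0 of 9 arrays by its single probe, so that no difference can be read for it.

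The mitochondrial folate enzymes were also lowest in induced cells. Shmt2 had signals of 5.48, 5.93 and 6.57 in induced cells, 13.4, 16.1 and 20.7 in islets and 71.1, 78.7 and 62.0 in non-islet cells. These signals lay near background in induced cells but did not overlap (-2.20, SE 0.11, for induced against non-islet cells, and -0.67, SE 0.11, against islets). The other Shmt2 probe was dimmer still: it was above background on 0 of 3 induced, 3 of 3 islet and 1 of 3 non-islet arrays, and its non-islet signals of 8.54, 14.3 and 1.27 overlapped those of induced cells (-0.32, 1.653 and -1.12). Mthfd2 had signals of 149.3, 164.0 and 151.6 in induced cells, 527.9, 561.4 and 588.2 in islets and 844.4, 836.7 and 970.5 in non-islet cells. Induced cells stood well below both (-2.42, SE 0.095, against non-islet cells, and -1.77, SE 0.095, against islets). Islets and non-islet cells were close for this gene (-0.65, SE 0.095, but 1.08 with arrays scaled to equal noise), and in the deposited values their arrays overlapped, with 627 ± 39.5 in islets and 679 ± 90.9 in non-islet cells (SD, n = 3 each). Aldh1l2 had signals of 11.0, 12.0 and 11.1 in induced cells, 100.2, 99.1 and 86.5 in islets and 321.2, 289.3 and 315.8 in non-islet cells. The groups were apart, with a difference of -2.20 (SE 0.091, or 4.60-fold) between induced cells and islets, close to that of Psat1, and one of -3.78 (SE 0.091) from non-islet cells.

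Asns, the asparagine synthetase, has 2 probes, and the brighter had signals of 314.3, 356.3 and 331.4 in induced cells, 591.8, 747.7 and 766.1 in islets and 1898, 1820 and 2432 in non-islet cells. The groups did not overlap, at -2.57 (SE 0.13) for induced against non-islet cells and -1.04 (SE 0.13) against islets. The dimmer probe had larger differences of -3.54 (SE 0.10) and -1.31 (SE 0.10). Bcat2 had signals of 35.1, 35.6 and 37.2 in induced cells, 75.9, 72.6 and 61.5 in islets and 778.4, 810.1 and 714.6 in non-islet cells. This transaminase gene was thus far below non-islet cells in both other groups, at -4.02 (SE 0.097) in induced cells and -3.25 (SE 0.097) in islets, and induced cells lay below islets by less (-0.77, SE 0.097).

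Of the sulfur transfer pair, Cbs did not separate induced cells from islets, and Cth was at background in both, so that no difference between them can be read for it. Cbs had signals of 74.6, 67.4 and 81.6 in induced cells, 74.3, 64.4 and 65.0 in islets and 647.0, 583.1 and 570.2 in non-islet cells. Induced and islet arrays overlapped (0.11, SE 0.10), by the other Cbs probe as well (-0.23, SE 0.11), which did not overlap in the deposited values, and both groups lay below non-islet cells (-2.82 in induced cells and -2.94 in islets, SE 0.10 each). The description low in induced cells thus holds for Cbs against non-islet cells and not against islets. Cth, the next enzyme, was above background on 0 of 3 induced and 0 of 3 islet arrays and had signals of 143.2, 146.3 and 157.3 in non-islet cells. Against the background limit it was at least 11.0-fold lower in induced cells than in non-islet cells. Its other probe was above background on no array and adds nothing.

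**Figure D1:**
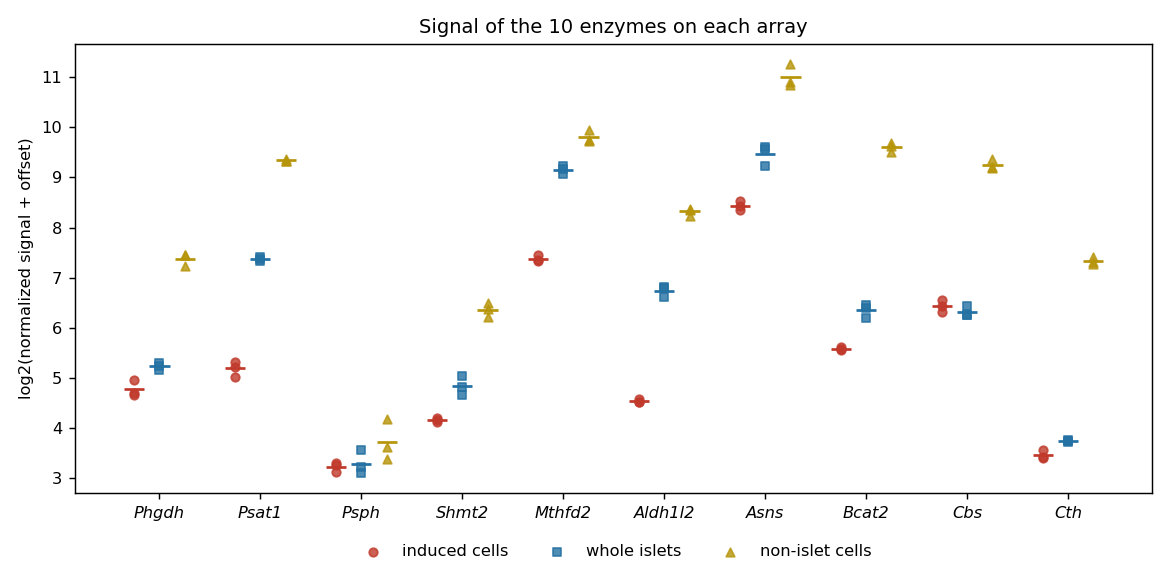
Signal of each enzyme's brightest probe on each of the 9 arrays, as log2 of the quantile-normalized signal plus an offset of 11.93 (y axis), with circles for induced cells, squares for islets, triangles for non-islet cells and bars for the group means. Non-islet arrays lie highest for the 9 genes above background there, islets lie near non-islet cells for Mthfd2, induced cells and islets coincide for Cbs, and Psph is at background in every group.

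Of the 9 genes above background in non-islet cells, 9 had induced arrays below every non-islet array. Over all 9937 genes measured 36.9% did so and 40.9% lay higher without overlap. Nothing is read from the members' counts in this or the next comparisons, because the genes were chosen on these 3 groups. Between induced cells and islets 8 genes were above background in at least 1 group, and 7 of them had every induced array below every islet array, beside 36.9% of all genes, with 31.6% higher. For islets against non-islet cells 9 of 9 were lower without overlap, beside 35% of all genes, with 41.3% higher. These comparisons share arrays, so their values stand side by side and do not support each other. The median log2 difference over all 10 genes was -2.72 for induced against non-islet cells, -0.72 for induced cells against islets and -1.78 for islets against non-islet cells, beside medians of 0.07, -0.04 and 0.10 over all genes. With Cth at its bound the medians were the same.

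The genes differed in where islets stood between the other groups. On the log2 scale after quantile normalization, with induced cells at 0% and non-islet cells at 100%, islets stood at 73.3% for Mthfd2, 58.2% for Aldh1l2 and 52.4% for Psat1. Asns followed at 40.5% and Shmt2 at 30.5%. Bcat2 stood at 19.2% and Phgdh at 17.4%, and Cbs at -4.05%. By the brightest probes islets stood nearer to non-islet than to induced cells for Mthfd2, Aldh1l2 and Psat1 under each of the 4 scalings run. They stood nearer to induced cells for Bcat2, Cbs and Cth. The other Psat1 probe, however, put islets nearer to induced cells with quantile normalization. Its differences were -1.77 for induced cells against islets and -2.35 for islets against non-islet cells. For Phgdh, Asns and Shmt2 the side turned with the scaling, and Psph, at background, is left out. Phgdh stood at 79.5% and Asns at 69.7% with equal noise, and Shmt2 at 56.7% in the deposited values and beyond non-islet cells, at 151.4%, with equal noise. Mthfd2 (595.5%) and Aldh1l2 (127.5%) also stood beyond non-islet cells with equal noise.

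**Figure D2:**
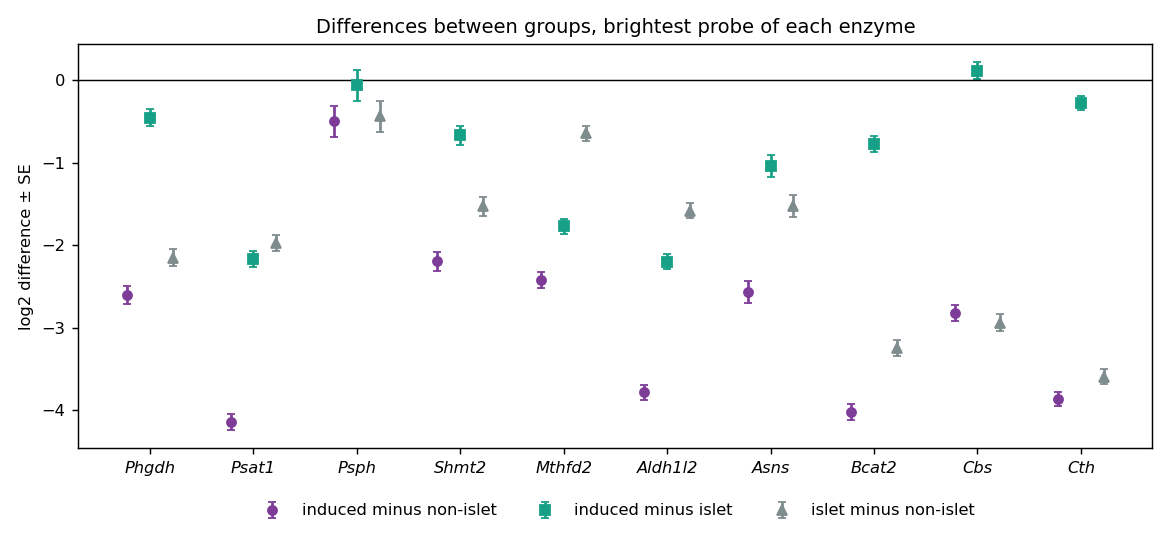
Log2 differences between groups for the brightest probe of each enzyme (y axis), with the standard error of limma's fit as bars, for induced minus non-islet, induced minus islet and islet minus non-islet. Induced minus islet differences reach -2.17 for Psat1 and -2.20 for Aldh1l2 and are near 0 for Cbs, while Bcat2, Cbs and Cth have islet minus non-islet differences below -2.9.

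How far the enzymes stood below non-islet cells depended on how arrays were scaled. With the values as deposited the median over the 10 genes was -1.82 for induced against non-islet cells and with arrays scaled to equal noise it was -0.67, while the median of all genes was 0.33 and 1.18. Relative to all genes the 10 stood at -2.78, -2.15 and -1.84 with quantile normalization, the deposited values and equal noise. Under each of these scalings the sign of induced minus non-islet was negative for 10 of 10 genes, Psph included, whose probe is at background. For islets against non-islet cells equal noise turned 3 of the 10 upwards, namely Aldh1l2, Shmt2 and Mthfd2 (0.47, 0.23 and 1.08). Induced against islet differences moved less, with Psat1 between -2.17 and -1.82 and Aldh1l2 between -2.20 and -1.71 over the 4 scalings.

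**Figure D3:**
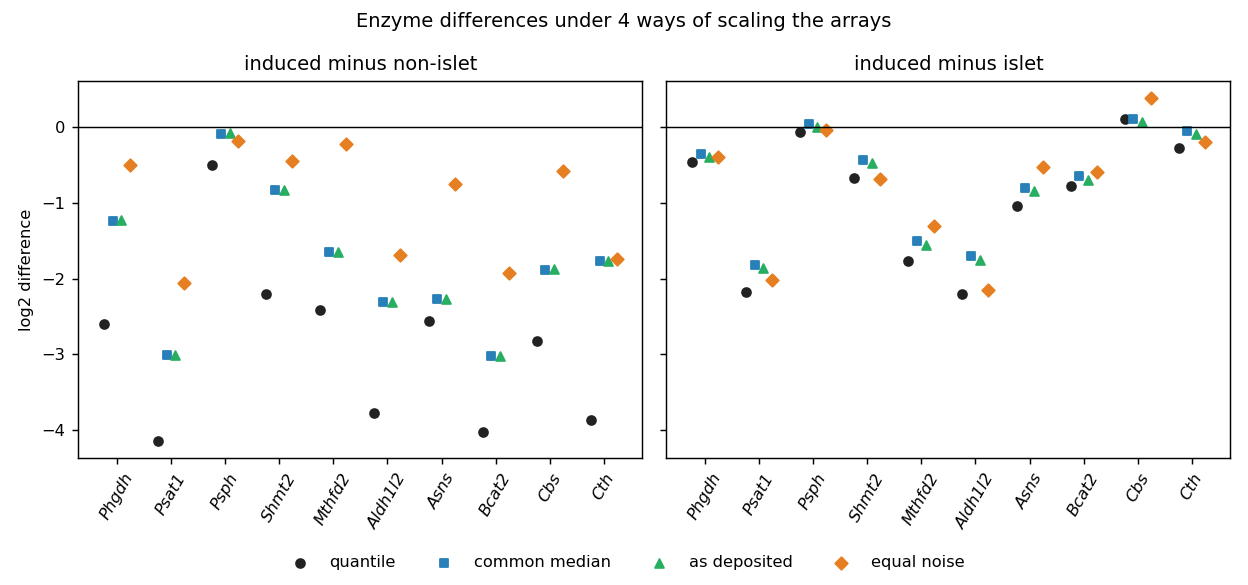
Log2 differences of each enzyme (y axis) for induced minus non-islet (left) and induced minus islet (right) under quantile normalization, a common median, the values as deposited and equal noise. On the left the points of an enzyme spread widely and stay below 0, with Bcat2 from -4.02 to -1.93, and on the right they lie close together, with Cbs at or above 0.

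Of the marker lists of other exocrine and stromal cells, the acinar sum ran in the order of most of the enzymes, lowest in induced and highest in non-islet cells. In the deposited values the summed acinar signal was 4.68 times as high in non-islet as in induced cells and 1.33 times as high in islets as in induced cells. After quantile normalization the acinar sum was 101389 to 110875 in induced cells, 117781 to 118615 in islets and 135069 to 137227 in non-islet cells. The single genes kept this order less clearly. For induced against non-islet cells 5 of the 13 fell and 0 rose (limma adjusted p under 0.05), with a median log2 difference of -0.10. For induced cells against islets 3 fell and 2 rose (median -0.13), and for islets against non-islet cells 3 fell and 0 rose (median 0.03). For the enzymes, deposited means in non-islet cells were 16.5 times those of induced cells for both Psat1 and Aldh1l2, 13.7 times for Bcat2, 6.40 times for Shmt2, 5.18 times for Asns, 5.07 times for Phgdh, 4.65 times for Cbs and 3.53 times for Mthfd2. Deposited means in islets were 10.2 times those of induced cells for Aldh1l2, 6.80 times for Psat1, 3.70 times for Shmt2, 3.26 times for Mthfd2, 2.11 times for Bcat2, 1.95 times for Phgdh, 1.87 times for Asns and 0.940 times for Cbs. The other lists had other orders, with duct sums highest in induced cells and endothelial, stellate and macrophage sums highest in islets. Endothelial genes (6 of 7 measured) summed to 27.2 to 34.3 in induced cells, with Esm1 not above background, 2366 to 2504 in islets and 155.3 to 194.8 in non-islet cells, where Esm1 was not above background either. Stellate and fibroblast genes (6 of 7 measured) summed to 90.9 to 100.7 in induced cells, with Pdgfrb not above background, 474.7 to 523.8 in islets and 217.3 to 305.8 in non-islet cells, with Col1a1 and Acta2 not above background. Macrophage genes (5 of 7 measured) summed to 90.3 to 107.3 in induced cells, 303.1 to 322.7 in islets and 43.3 to 67.4 in non-islet cells, with C1qb not above background. Duct genes (5 of 7 measured) summed to 2265 to 2428 in induced cells, 1077 to 1227 in islets and 882.6 to 1008 in non-islet cells, with Cftr above background in induced cells alone. The part of these cells in the enzyme differences was not tested.

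The wider pathway was then examined in 8 lists of related genes that were not among the 10 enzymes. The lists were drawn up with earlier results of these data known, so their counts are no independent test. Of 166 listed genes 136 were on the array and 111 were measured, that is, above background throughout 1 or more groups. In induced against non-islet cells 68 of the 111 fell and 25 rose (limma, Benjamini-Hochberg adjusted p under 0.05), that is 61.3% and 22.5%, where 36.8% of all genes fell and 40.7% rose. In the values as deposited, however, 40 fell and 46 rose, and with equal noise 11 fell and 82 rose. Of all 9937 genes 2192 fell and 5915 rose in the deposited values, and 405 fell and 8007 rose with equal noise. In induced cells against islets 42 fell and 28 rose, that is 37.8% and 25.2%, where 27.2% of all genes fell and 24% rose. In the deposited values 47 fell and 27 rose, beside 3432 and 2411 of all 9937 genes. With equal noise 24 fell and 41 rose, beside 2314 and 3869 of all genes. In islets against non-islet cells 67 fell and 27 rose, where 34.8% of all genes fell and 41.4% rose. In the deposited values 39 fell and 48 rose, beside 1847 and 6412 of all genes. With equal noise 13 fell and 84 rose, beside 498 and 8008 of all genes. For induced against non-islet cells the share of calls that were rises was 26.9% among the listed and 52.5% among all genes with quantile normalization, 53.5% and 73% in the deposited values, and 88.2% and 95.2% with equal noise. The counts per list below stand beside the counts of all genes under the same scaling. Relative to the median of all genes, the list medians with equal noise ran from -0.47 (serine and glycine) to 0.05 (tRNA synthetases).

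In the branched-chain list 13 of 14 genes fell in induced against non-islet cells and 0 rose (median -1.34). In the deposited values 9 fell and 2 rose, and with equal noise 0 fell and 9 rose, where 8007 of all 9937 genes rose. Relative to the median of all genes the list median was -1.41, -0.75 and -0.43 with quantile normalization, the deposited values and equal noise. Bckdk, the kinase that restrains the branched-chain keto acid dehydrogenase, had signals of 109.6 ± 6.66 in induced cells, 155.1 ± 23.1 in islets and 619.6 ± 34.2 in non-islet cells (SD, n = 3 each; -2.38, limma adjusted p = 6.42e-09). Mccc1, which encodes a subunit of the leucine pathway's carboxylase, fell by 2.11 on the log2 scale (SE 0.14, limma adjusted p = 9.22e-08). With equal noise neither was called. Against islets 8 of the 14 fell and 2 rose (median -0.33), that is 57.1% and 14.3% beside 27.2% and 24% of all genes, and with equal noise 3 fell and 2 rose. The 2 were the dehydrogenase subunit genes Bckdha and Bckdhb, at 1.51 and 1.07 (limma adjusted p = 3.5e-07 and 8.76e-06). Bcat1, the cytosolic counterpart of Bcat2, was above background in islets alone and at least 1.19-fold lower in induced cells (limma adjusted p = 0.00424).

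Of 13 methionine and sulfur genes 7 fell and 4 rose in induced against non-islet cells (median -0.33). In the deposited values 5 fell and 8 rose, and with equal noise 2 fell and 8 rose. Gnmt, the glycine N-methyltransferase, had signals of 7.20 ± 1.06 in induced cells, 10.3 ± 1.73 in islets and 257.2 ± 17.2 in non-islet cells (SD, n = 3 each; -3.81, limma adjusted p = 6.95e-11), a layout like that of Cth. Mat1a, which makes S-adenosylmethionine, fell against non-islet cells (-2.50, SE 0.091) and islets (-1.58, SE 0.091). Suox, the sulfite oxidase, and Sqor, the sulfide oxidoreductase, rose against non-islet cells (2.20 and 1.48, limma adjusted p = 3.23e-09 and 3.46e-06). Against islets 5 of the 13 fell and 3 rose, that is 38.5% and 23.1% beside 27.2% and 24% of all genes, and with equal noise 2 fell and 4 rose.

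Serine and glycine genes fell for 3 of 7 and rose for 2 against non-islet cells (2 and 3 in the deposited values, 1 and 5 with equal noise). Gcat, which breaks threonine carbon down to glycine, was the deepest fall (-2.85, SE 0.092), with 408.6 ± 3.44 in induced cells, 438.1 ± 24.2 in islets and 3029 ± 247 in non-islet cells (SD, n = 3 each). Like Cbs it did not separate induced cells from islets (-0.10, limma adjusted p = 0.430). Gldc, of the glycine cleavage system, was above background in induced cells alone and at least 1.31-fold higher than in islets (limma adjusted p = 0.00012). Folate genes fell for 4 of 8 and rose for 3 against non-islet cells (1 and 5 in the deposited values, 0 and 7 with equal noise). Against islets 4 fell and 1 rose (5 and 1 in the deposited values, 3 and 1 with equal noise). That is 50% and 12.5% with quantile normalization, beside 27.2% and 24% of all genes. Slc19a1, the reduced folate carrier, fell against islets (-0.79, limma adjusted p = 4.7e-05). For Mthfd1l, the mitochondrial enzyme that releases formate, induced cells lay between the other groups. Signals were 78.2 ± 0.358 in induced cells, 137.9 ± 5.51 in islets and 45.3 ± 10.9 in non-islet cells (SD, n = 3 each). Mthfd1l thus fell against islets (-0.73, SE 0.13) as Mthfd2 did and rose against non-islet cells (0.67, SE 0.13).

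Aspartate, glutamate, proline and arginine genes fell for 8 of 15 and rose for 4 against non-islet cells (5 and 9 in the deposited values, 2 and 12 with equal noise). Gamt and Gatm, the enzymes of creatine synthesis, fell most (-3.97 and -2.22, limma adjusted p = 3.18e-11 and 1.9e-07). Against islets 8 of the 15 rose and 5 fell, that is 53.3% and 33.3% beside 24% and 27.2% of all genes. In the deposited values 8 rose and 6 fell, and with equal noise 8 rose and 3 fell. Arg2, the mitochondrial arginase, rose at least 2.05-fold and Prodh2 fell (-2.05, limma adjusted p = 3.81e-08).

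Genes of the amino acid response did not move as one. Against non-islet cells 11 of 17 fell and 4 rose (7 and 6 in the deposited values, 2 and 12 with equal noise), and against islets 5 fell and 6 rose (4 and 9 with equal noise). The counts against islets are 29.4% and 35.3%, beside 27.2% and 24% of all genes. Atf3, a stress-induced transcription factor, had signals of 635.6 ± 24.9 in induced cells and 18.8 ± 0.634 in islets and was at background in non-islet cells (SD, n = 3 each; 4.40 against islets, limma adjusted p = 2.09e-09). Ppp1r15a, which reverses the stress block on translation, rose by 2.09 against islets (SE 0.14). Atf5, itself an ATF4 target, had 49.1 ± 0.67 in induced cells, 268.5 ± 23.1 in islets and 348.3 ± 26.9 in non-islet cells (SD, n = 3 each; -2.20 against islets, limma adjusted p = 1.18e-08). Chac1, a glutathione-degrading ATF4 target, fell against islets (-1.29, SE 0.098). Fgf21, a hormone of acinar cells and liver, fell against non-islet cells (-3.82, SE 0.085). Atf4 itself, named after its values were seen, had 675.3 ± 35.1 in induced cells, 671.5 ± 60.3 in islets and 740.3 ± 91.3 in non-islet cells (SD, n = 3 each). Its differences from islets were 0.01 and 0.19 by its 2 kept probes and were not called. ATF4 protein is known to be controlled largely at translation, which these arrays do not measure.

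Cytosolic tRNA synthetases, which charge tRNAs with amino acids, fell for 10 of 13 genes and rose for 1 against non-islet cells (3 and 5 in the deposited values, 0 and 11 with equal noise). Against islets 8 fell and 1 rose (median -0.49), where 27.2% of all genes fell and 24% rose with quantile normalization. In the deposited values 8 fell and 1 rose, and with equal noise 7 fell and 2 rose. Sars, which loads serine, fell most, with 67.1 ± 7.07 in induced cells, 228.0 ± 8.2 in islets and 151.1 ± 7.2 in non-islet cells (SD, n = 3 each; -1.61 against islets, limma adjusted p = 1.04e-07). Its other probe ran the same way (-0.82, limma adjusted p = 0.000142). Farsb fell as well (-0.91, SE 0.086). Amino acid transporters fell for 12 of 24 and rose for 7 against non-islet cells (8 and 8 in the deposited values, 4 and 18 with equal noise). Against islets 5 fell and 6 rose (6 and 5 in the deposited values, 2 and 12 with equal noise). That is 20.8% and 25% with quantile normalization, beside 27.2% and 24% of all genes. Slc1a4, which carries serine and other small neutral amino acids, had 24.7 ± 0.26 in induced cells, 126.9 ± 12.8 in islets and 259.8 ± 31.2 in non-islet cells (SD, n = 3 each; -1.92 against islets, limma adjusted p = 6.66e-08). Slc6a9, a glycine carrier, fell against non-islet cells (-3.07, SE 0.088). Slc38a5, a glutamine and serine carrier, and Slc7a7 rose against islets (4.08 and 3.52, limma adjusted p = 9.2e-11 and 5.59e-08).

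**Figure D4:**
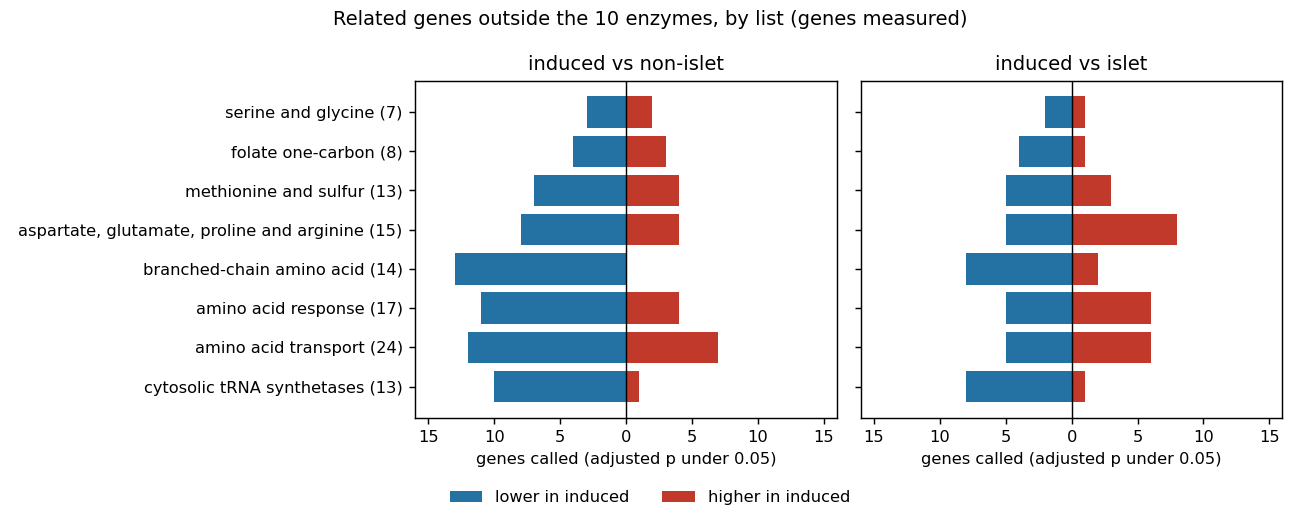
Number of genes (x axis) of each list of related genes that were lower (bars to the left) or higher (bars to the right) in induced cells than in non-islet cells (left panel) and islets (right panel), at a limma adjusted p under 0.05 with quantile normalization. The number measured stands in parentheses. The branched-chain list has 13 falls and 0 rises on the left, and tRNA synthetases have 8 falls and 1 rise on the right. With equal noise the branched-chain list has 0 falls and 9 rises, where 405 of all 9937 genes fall and 8007 rise.

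The genes most like the enzymes were sought by correlating each gene with the mean standardized log2 signal of the 9 enzymes that were measured. Over the 9 arrays, which fall into 3 groups, the 8 nearest genes were Egf, Mlec, Rap1gds1, Dtnb, Derl3, Noc2l, Cd80 and Ide, with Pearson's r from 0.997 to 0.999. Egf, an epidermal growth factor gene, had mean signals of 53.1 in induced cells, 117.6 in islets and 481.5 in non-islet cells. Derl3, of endoplasmic reticulum quality control, had means of 4.28 in induced cells, 20.0 in islets and 127.3 in non-islet cells. The r of each enzyme with this mean, of which it is a part, ran from 0.900 for Mthfd2 to 0.992 for Shmt2. Even so 1630 genes had a higher r than Mthfd2, 1086 than Cbs and 43 than Shmt2. These correlations are a description of 9 arrays in 3 groups.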

How the data were processed

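RNA from 9 samples in 3 groups was hybridised to Illumina bead arrays. The authors used BeadStudio to make the deposited intensity values, per the submitters' processing notes, whose version and settings are not given in the sources used here. From the values, they are linear and background-subtracted with an equal mean on every array. A further table, with 36 columns named by slide position that the labels do not connect to samples, was left out, so slide and group cannot be told apart. Signals were quantile-normalized, 11.93 was added and log2 taken. Noise was estimated from values below 0 mirrored at 0. Probes beyond the 95th percentile of that noise throughout 1 or more groups were kept (13927 probes, 9937 genes), in place of the detection p-values usual for such arrays. Of the probes 20984 had 1 symbol, 1 several and 3628 none, and 20968 matched RefSeq by gene number. The brightest kept probe stood for a gene. The 3 groups were fitted with limma 3.58.1 in R 4.3.3 (lmFit, eBayes, two-sided, Benjamini-Hochberg over kept probes, threshold 0.05), which was tested on simulated data. The 10 enzymes were chosen on these groups and get no p. Members and lists were chosen with earlier results of these data known. Named related genes are, per list and comparison with induced cells, among the called genes with the largest rises and falls. The number of arrays limits the precision. Alternatives are given in the closing section.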

Additional observations from a re-analysis of the deposited data

How the results depend on the processing

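The median log2 difference of the 10 enzymes kept its sign in each comparison under every alternative run. For induced against non-islet cells it was -2.28 with an offset of 50, -1.83 with a common median, -1.82 as deposited, -0.67 with equal noise and -3.02 with the mean of kept probes, and -2.81 to -2.69 when single arrays were left out (main -2.72). For induced cells against islets it was -0.37, -0.54, -0.58 and -0.56 under the first 4 of these, and -0.80 to -0.68 with single arrays left out (main -0.72). For islets against non-islet cells it was -1.46, -1.04, -0.99, -0.13 and -2.01, and -1.85 to -1.77 (main -1.78). Of 111 related genes 25 rose and 68 fell in induced against non-islet cells, but 46 and 40 did with a common median, 46 and 40 as deposited, and 82 and 11 with equal noise. Of all 9937 genes 5915 rose and 2203 fell with a common median, 5915 and 2192 as deposited, and 8007 and 405 with equal noise. When probes had to be above background on all arrays 8 of 82 rose and 65 fell. That filter leaves out genes at background in any group, such as Atf3 in non-islet cells. In induced cells against islets 28 rose and 42 fell, against 24 falls with equal noise, where 2314 of all 9937 genes fell. There were 17 rises among probes above background on all arrays. In islets against non-islet cells 27 rose and 67 fell, against 46 and 41 with a common median, 48 and 39 as deposited, 84 and 13 with equal noise, and 12 rises among probes above background on all arrays. Of all genes 6114 rose and 2051 fell with a common median, 6412 and 1847 as deposited, and 8008 and 498 with equal noise. The cause of these shifts was not tested. Of 1198 alternative values of the named related genes, 1172 kept direction and call, 19 lost the call and 7 reversed, each with equal noise: against non-islet cells Amt (0.12), Slc19a1 (0.14), Tyms (0.67), Tars (0.27) and Vars (0.67), and against islets Dld (0.045) and Sptlc1 (0.15). With the replicate number as a block (replicate block), 25 rose and 68 fell against non-islet cells and 28 and 41 against islets. Deviations of same-numbered arrays correlated from -0.116 to 0.189, and those of arrays with other numbers from -0.216 to 0.207. With 3 arrays per group this cannot show whether same-numbered samples share more than a number. Psph and the second Cth probe were above background on no array, so their signals set no order between groups.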
